A study of Rattus norvegicus with 24 samples.

Results

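The genes described here encode the proteasome, its regulatory particles, its assembly chaperones and its inhibitor, as measured in rat blood on 2-colour expression arrays. They were found by name: every non-control probe whose gene symbol began with Psma, Psmb, Psmc, Psmd, Psme, Psmf or Psmg and a digit was taken, and the probe with the brightest Cy3 signal stood for its gene. The rule gave 50 genes, carried by 58 probes, of 25885 genes and unnamed targets on the array. Psmc3ip, which takes part in meiotic recombination and is no proteasome subunit, met the rule by its name, and Psma3l is a copy closely like Psma3. The array annotation (rat build rn4) puts the Psma3l probe at chr6:93111009-93111068, close to the Psma3 probe at chr6:93112068-93112127. Their mean Cy3 signals were 797.3 and 66.0. Whether the Psma3l probe reads Psma3 RNA was not tested.

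The proteasome is the barrel-shaped protease that breaks down ubiquitin-tagged proteins. Its outer rings of alpha subunits control entry, and its inner rings of beta subunits hold the catalytic sites, of which Psmb5 carries the chymotrypsin-like, Psmb6 the caspase-like and Psmb7 the trypsin-like activity. In leukocytes, and in other cells under interferon-gamma, newly built particles take up the immunosubunits instead: Psmb8 in the place of Psmb5, Psmb9 in the place of Psmb6 and Psmb10 in the place of Psmb7. This changes the peptides available for presentation on MHC class I molecules. Substrates are unfolded and fed in by the 19S particle, made of the Psmc ATPases and the Psmd non-ATPase subunits, while Psme1 and Psme2 form an interferon-inducible cap, Psme3 and Psme4 are further activators, and Psmf1 encodes PI31, known as an inhibitor of the core particle in the test tube.

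The animals were male Sprague Dawley rats, 8 weeks old per the labels, kept for 6 weeks on a semi-synthetic diet. C-G0 received that diet alone, C-G1 the same food with added oat beta-glucan of high molecular weight and C-G2 with the low-molecular-weight form, and these 3 groups were not given lipopolysaccharide. LPS-G0, LPS-G1 and LPS-G2 received the same 3 diets and 10 mg/kg of lipopolysaccharide (LPS), the bacterial cell wall component used here to provoke enteritis. Each group had 4 arrays, each of total blood RNA from a separate animal, set against 1 common reference pool. The labels describe the pool as RNA of all rats in the experiment, while the published methods describe it as made from some samples of each group that were then not put on arrays, so that its make-up is not settled. Nothing in the labels ties the blood samples to a cell fraction, so that fewer cells of a type and less RNA per cell cannot be told apart in any value below.

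For the LPS-G0 arrays numbered 3 and 4, the sample title names LPS while the field on induction says control. They were kept in the group the title gives, and values without them are given where they change a result. The labels put each rat's RNA in the Cy3 channel and the reference in Cy5, while the published methods name the dyes the other way round. All values here are log2 of Cy3 over Cy5, so that every sign would turn if the methods were right. The reference is the same RNA on every array. Within groups, the SD of the log2 signal had a median of 0.383 in Cy3 and 0.257 in Cy5 over the 7074 probes that were bright in each dye throughout, and it was larger in Cy3 for 95.3% of them. The arrays differed in sensitivity, with 7786 to 15385 probes well above background in Cy3, and the number of arrays limits the precision.

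The array probes tell the exchanged subunits apart, and their sequences are given because the comparison of immunosubunits with their constitutive partners rests on them. Psmb5 was read at chr15:32690134-32690193 and Psmb8 at chr20:4787980-4788039, and Psmb6 at chr10:57371368-57371427 and Psmb9 at chr20:4806341-4806400 (array annotation, rat build rn4). The longest run of bases that any of these 4 probes shared with a probe of another gene of the set was 8. For the Psmb7 and Psmb10 probes, not printed here, it was 11 and 9. Probes were compared with probes and not with transcripts, so that binding of a partner's RNA was not tested.
Psmb5: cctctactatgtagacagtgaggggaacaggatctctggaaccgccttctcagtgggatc
Psmb8: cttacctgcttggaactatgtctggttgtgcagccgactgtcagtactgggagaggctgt
Psmb6: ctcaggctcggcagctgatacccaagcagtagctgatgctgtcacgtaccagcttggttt
Psmb9: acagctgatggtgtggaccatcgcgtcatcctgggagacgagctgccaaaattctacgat

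Promoters of the immunosubunits and of Psme2 are given because interferon-inducible genes often carry an interferon-stimulated response element there. Its core, written here as GAAA, NN and GAAA in a row, was searched on both strands of the 250 bases before and 50 after each RefSeq start (build GRCr8), and its matches are in capitals. It was found in 7 of the 44 promoters available for the set (Psma4, Psmb3, Psmb8, Psmb10, Psmd7, Psme2 and Psmg4) and in 3.92% of all 33469 promoters of this length. Psmb8 (chr20:4656982-4657281, minus strand) had 1 match, Psmb9 (chr20:4668750-4669049, plus strand) none in this window, Psmb10 (chr19:50743243-50743542, minus strand) 2 and Psme2 (chr15:33052702-33053001, minus strand) 1.
Psmb8: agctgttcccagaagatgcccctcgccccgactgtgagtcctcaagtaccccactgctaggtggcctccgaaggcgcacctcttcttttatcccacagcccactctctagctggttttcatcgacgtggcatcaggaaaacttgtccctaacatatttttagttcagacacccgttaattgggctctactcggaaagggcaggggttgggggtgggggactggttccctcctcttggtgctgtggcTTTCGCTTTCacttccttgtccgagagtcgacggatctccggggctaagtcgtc
Psmb9: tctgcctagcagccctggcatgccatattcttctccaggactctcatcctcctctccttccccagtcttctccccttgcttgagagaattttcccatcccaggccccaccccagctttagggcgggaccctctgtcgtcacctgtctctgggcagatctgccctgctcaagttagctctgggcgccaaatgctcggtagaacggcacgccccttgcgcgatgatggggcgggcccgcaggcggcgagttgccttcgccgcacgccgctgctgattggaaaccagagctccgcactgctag
Psmb10: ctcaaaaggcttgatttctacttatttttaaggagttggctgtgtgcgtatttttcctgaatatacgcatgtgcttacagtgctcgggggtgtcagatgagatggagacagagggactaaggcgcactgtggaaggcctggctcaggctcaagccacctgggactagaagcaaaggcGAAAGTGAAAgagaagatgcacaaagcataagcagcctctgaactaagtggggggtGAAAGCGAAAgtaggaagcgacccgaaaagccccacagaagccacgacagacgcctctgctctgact
Psme2: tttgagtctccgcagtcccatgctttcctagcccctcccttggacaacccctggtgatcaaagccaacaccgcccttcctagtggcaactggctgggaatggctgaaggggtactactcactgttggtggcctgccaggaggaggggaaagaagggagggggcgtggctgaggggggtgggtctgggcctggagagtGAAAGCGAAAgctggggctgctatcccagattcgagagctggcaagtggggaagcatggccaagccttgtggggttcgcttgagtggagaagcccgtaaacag

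Further motifs were counted in the same way. The antioxidant response element core TGACNNNGC, read by the factors that raise proteasome genes when the proteasome is short, was in 8 of the 44 promoters, Psmb5 and Psmb6 among them, and in 12.1% of all promoters. The interferon-gamma activated site TTCNNNGAA was in 4 (Psmb8, Psmc6, Psmd3 and Psmd7) against 8.87% of all, and CCAAT in 22 against 37.5%. Both strands were searched for each, and no match to the first core overlapped one to TTCNNNGAA in these genes. A match describes letters only and does not show that a factor binds.

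Of the 50 genes, 37 had a Cy3 signal well above background on each of the 24 arrays and none was saturated on any. A probe was tested where it was well above background on every array of at least 1 of the groups fitted, which left 41 genes for the comparisons fitted on 16 arrays and 44 for those on 24. Psma3, Psmc6 and Psmd14 were in the larger set alone and passed through the C-G1 arrays, so that their C-G1 values carry no weight. Psmd3 was dim, with a mean Cy3 signal of 108.9, and passed through groups other than C-G0 and C-G2. It was above background on 2 of the 4 C-G0 arrays and 3 of the 4 C-G2 arrays, so that its differences from C-G0 start near the floor. Psma2, Psmd10 and Psme3 were above background on 3 of the 4 C-G0 arrays. Psma8 and Psmb11, known from testis and thymus, the chaperones Psmd5, Psmg2 and Psmg3, and Psmc3ip were not tested. No other gene of the set is left out of the counts below.

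**Figure D1:**
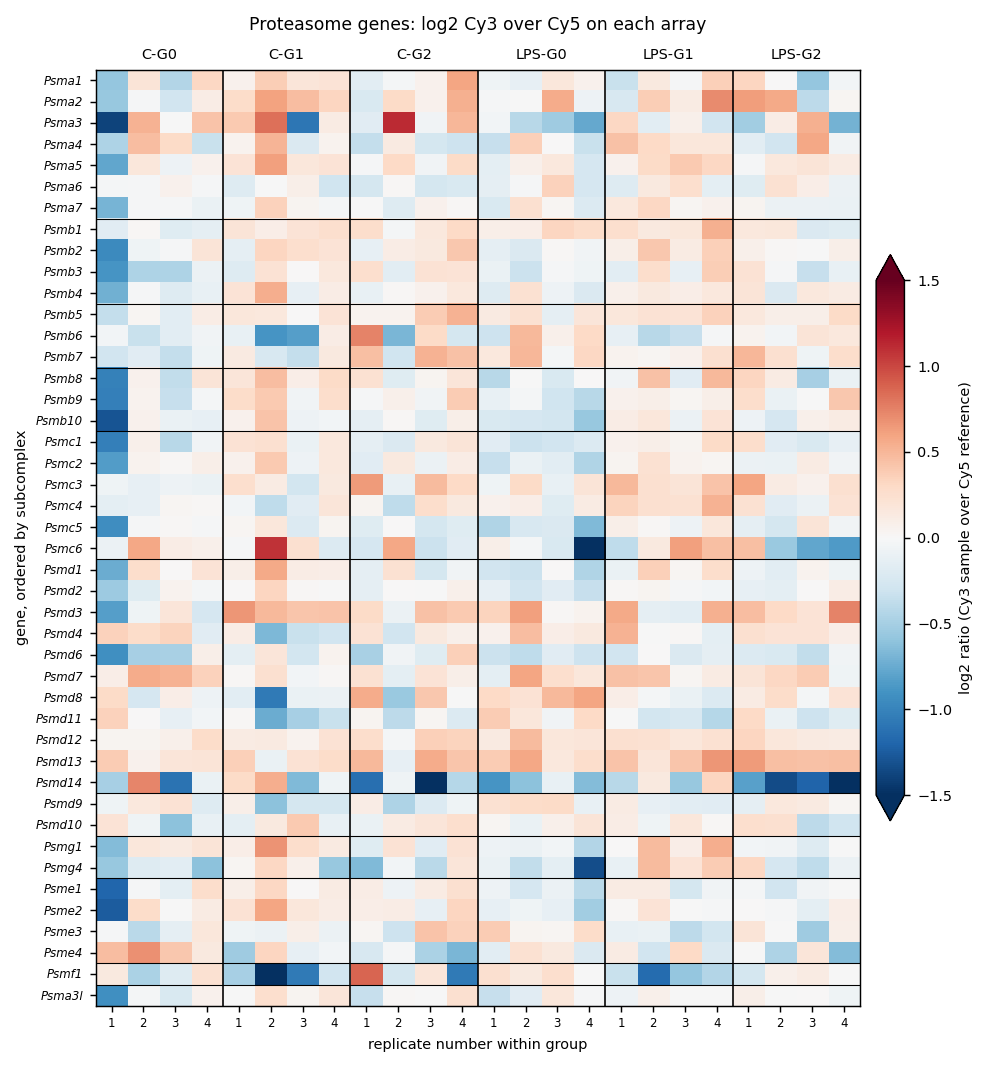
Log2 ratio of Cy3 over Cy5 (colour) for each proteasome gene (rows, grouped by role) on each of the 24 arrays (columns, by group and replicate). C-G0 replicate 1 is low across many rows, with -1.29 for Psmb10 and -1.25 for Psme2, and the Psmf1 row is lowest in C-G1, at -1.97 on replicate 2.

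Over the 24 arrays the log2 ratios of the 44 tested genes had SDs from 0.11 to 0.70. Psmd12, a 19S lid subunit, varied least, from -0.03 to 0.47 with an SD of 0.11. Psmf1 varied most among those above background on every array, from -1.97 to 0.87 with an SD of 0.60. The catalytic subunits lay between, with SDs of 0.18 for Psmb5, 0.39 for Psmb6, 0.28 for Psmb7, 0.34 for Psmb8, 0.31 for Psmb9 and 0.32 for Psmb10.

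One control array stood apart for these genes. C-G0 replicate 1 was the lowest of its group for 29 of the 44 tested genes, or 65.9%, against 42.3% of all tested probes, and its median over the 44 was -0.55 against -0.06 over all probes. The means of the marker lists fixed for other blood cells on that array were -1.36 for cytotoxic T and NK cells, -0.90 for monocytes, -0.46 for T cells, -0.45 for B cells, 0.20 for erythroid cells, 0.41 for platelets and 0.86 for cell division. The neutrophil list lay between -0.13 and 0.28 on the C-G0 arrays. The part of these cells in the proteasome values was not tested. For counts at the p thresholds between 2 groups and for genes named by rule, values without this array are given where they changed by more than 1.5 times. Pair values, interactions, medians, counts without overlap and genes of other lists are given with it. Shares of all probes are those of the full fits. They were not kept for fits that left out arrays or changed the model.

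Psmb8 had log2 ratios of -1.01, 0.06, -0.37 and 0.19 on the 4 C-G0 arrays, 0.18, 0.47, 0.10 and 0.28 in C-G1, and 0.23, -0.19, 0.04 and 0.18 in C-G2. After LPS it had -0.42, -0.01, -0.23 and 0.01 in LPS-G0, -0.05, 0.44, -0.17 and 0.49 in LPS-G1, and 0.32, 0.12, -0.50 and -0.10 in LPS-G2. The C-G0 arrays spread the most, and LPS-G1 and LPS-G2 each overlapped LPS-G0. Psmb9 had -1.02, 0.05, -0.35 and -0.03 in C-G0, 0.27, 0.40, -0.06 and 0.26 in C-G1, and -0.02, 0.08, -0.05 and 0.39 in C-G2. It had -0.11, -0.03, -0.30 and -0.41 in LPS-G0, 0.06, 0.09, 0.03 and 0.09 in LPS-G1, and 0.27, -0.10, -0.01 and 0.40 in LPS-G2. Every LPS-G1 array was above every LPS-G0 array for Psmb9. Psmb10 had -1.29, 0.06, -0.10 and -0.12 in C-G0, 0.07, 0.43, -0.07 and -0.04 in C-G1, and -0.14, 0.02, -0.18 and 0.08 in C-G2. It had -0.23, -0.25, -0.28 and -0.57 in LPS-G0, 0.11, 0.17, -0.08 and 0.20 in LPS-G1, and -0.08, -0.25, 0.07 and 0.12 in LPS-G2. For Psmb10, too, LPS-G1 lay wholly above LPS-G0.

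The constitutive partners followed other orders. Psmb5 had -0.36, 0.03, -0.16 and 0.12 in C-G0, 0.13, 0.23, -0.13 and 0.18 in LPS-G0, and 0.17, 0.22, 0.21 and 0.34 in LPS-G1. Psmb6 had -0.31, 0.49, 0.07 and 0.30 in LPS-G0 and -0.12, -0.42, -0.34 and -0.02 in LPS-G1. Psmb7 had -0.29, -0.17, -0.36 and -0.06 in C-G0, 0.15, 0.49, -0.03 and 0.31 in LPS-G0, and 0.05, 0.03, 0.07 and 0.24 in LPS-G1. Psmb7 was higher on all LPS-G0 arrays than on any C-G0 array, whereas the 2 LPS groups overlapped for each of these partners.

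**Figure D2:**
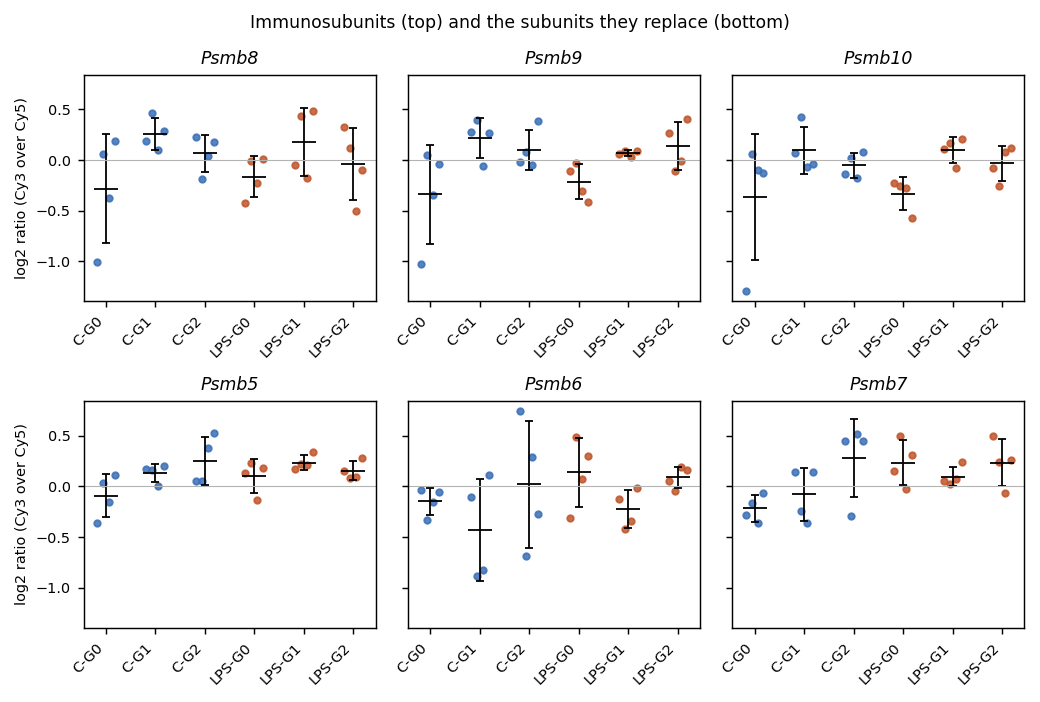
Log2 ratio of Cy3 over Cy5 on each array (points) with the group mean and SD, for each immunosubunit and its constitutive partner in the 6 groups. The LPS-G1 arrays lie above the LPS-G0 arrays for Psmb9 and Psmb10, and no such gap is seen for Psmb6 or Psmb7.

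The effect of LPS on the control diet was the first comparison, LPS-G0 against C-G0. None of the 41 tested proteasome genes passed an adjusted p of 0.05 in limma, nor in Tukey's test after adjustment, where limma called 0.0097% of all 10313 probes. At an unadjusted p under 0.05, 4 of the genes were higher and 1 lower, against 10.7% and 4.44% of all probes. Without C-G0 replicate 1 the counts were 2 higher and 5 lower, and without the LPS-G0 arrays numbered 3 and 4 they were 2 and 0. Psmb7 had the smallest adjusted p of the set, with a log2 difference of 0.45 (SE 0.15, adjusted p = 0.219), and was 0.55, 0.33 and 0.38 within the 3 slides. The lid subunits Psmd3 (0.50, adjusted p = 0.325) and Psmd8 (0.38, adjusted p = 0.251) and the structural subunit Psmb1 (0.31, adjusted p = 0.305) had values in the same direction. Without C-G0 replicate 1, Psmd3 had 0.30, and without the arrays of conflicting labels Psmd8 had 0.24. Psme4, an activator known for its part in histone turnover, had -0.43 (adjusted p = 0.327), and -0.21 as the mean of its probes. Groups did not overlap for Psmb1 and Psmb7, both higher in LPS-G0, against 3.83% of all probes higher and 1.21% lower without overlap.

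The immunosubunits differed little between these groups: 0.12 for Psmb8, 0.12 for Psmb9 and 0.03 for Psmb10, with the smallest adjusted p of the 3 at 0.812. Their direction rested on C-G0 replicate 1, without which they were -0.12, -0.10 and -0.28. The median over the 41 genes was 0.13 against 0.03 over all probes, and 31 of them lay above 0 against 53.5% of all probes. Without C-G0 replicate 1, Psmd8 passed the adjusted threshold. The cytotoxic T and NK list had a median of 0.87 in the same comparison. Of its 7 tested genes, 6 were higher at an unadjusted p under 0.05 and none was called, and 3 of 5 tested neutrophil markers were lower at that level. Of all probes, 10.7% were higher and 4.44% lower at that level. The part of these cells in the proteasome values was not tested.

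High-molecular-weight beta-glucan under LPS, LPS-G1 against LPS-G0, gave the one call in the set. Psmf1 had log2 ratios of 0.24, 0.15, 0.25 and -0.01 on the LPS-G0 arrays and of -0.33, -1.16, -0.58 and -0.44 on the LPS-G1 arrays. The lowest LPS-G0 array was above the highest LPS-G1 array. The brightest probe, at chr3:142058716-142058775 (rn4), fell by 0.79 on the log2 scale (SE 0.19, 95% interval -1.19 to -0.38, adjusted p = 0.0289 in limma). A second Psmf1 probe had 0.58, 0.57, 0.42 and 0.79 in LPS-G0 and -0.05, -0.92, -0.36 and -0.11 in LPS-G1, and it fell by 0.95 (adjusted p = 0.0289). Within the 3 slides the first probe was lower by -0.53, -1.12 and -0.44. This was 1 of 41 genes called, or the 1 lower, where 8.93% of all probes were called and 8.39% called lower, so that the share was below the background.

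The Psmf1 call depended on single arrays and on the model. It was lost when any of 6 of the 8 arrays was left out, and kept without LPS-G1 replicate 1 or LPS-G0 replicate 3. It was also lost with slide as a block (adjusted p = 0.0501) and without the LPS-G0 arrays numbered 3 and 4. The difference itself stayed between -0.88 and -0.61 in every setting tried.

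**Figure D3:**
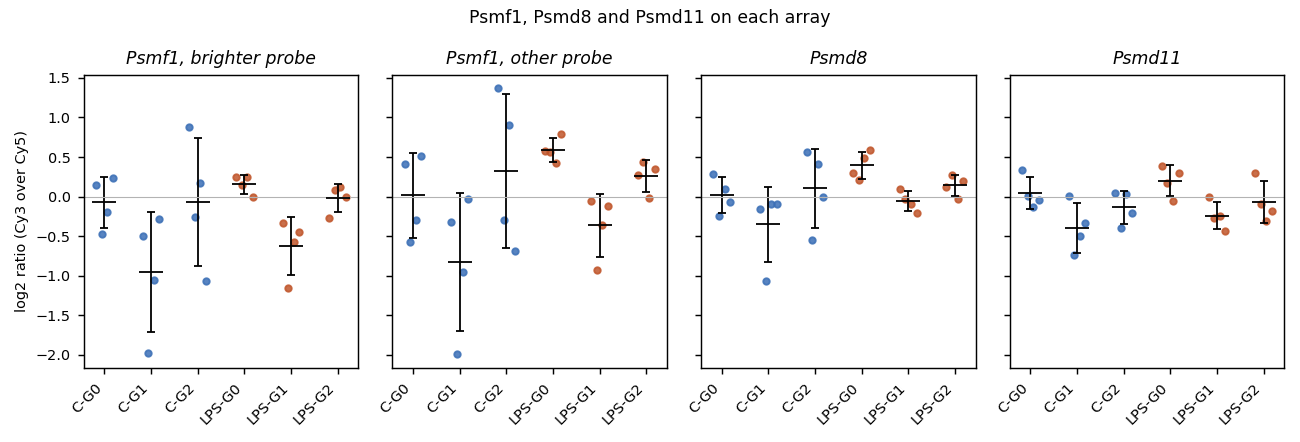
Log2 ratio of Cy3 over Cy5 of the brightest and of the second Psmf1 probe on each array (points), with group means and SD. LPS-G1 lies below LPS-G0 for both probes, and the widest spread is in C-G1, from -1.97 to -0.28, and C-G2, from -1.06 to 0.87, for the brightest probe.

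Further genes of the set separated these 2 groups without passing the adjusted threshold. Psmd8 had 0.30, 0.21, 0.48 and 0.59 in LPS-G0 and 0.10, -0.02, -0.10 and -0.21 in LPS-G1, a difference of -0.46 (adjusted p = 0.0586). Psmd11, the lid subunit also known as Rpn6, had -0.44 (adjusted p = 0.0987), and the nuclear activator subunit Psme3 -0.40 (adjusted p = 0.147). Psmb6 had -0.36 (adjusted p = 0.169). The assembly chaperones went the other way, with 0.73 for Psmg4 (adjusted p = 0.0715) and 0.44 for Psmg1 (adjusted p = 0.147). Of the 19S ATPases, Psmc5 had 0.44 (adjusted p = 0.16) and Psmc4 0.30 (adjusted p = 0.163). All 5 tested ATPases had a difference above 0, with a median of 0.35, where the median of all probes was 0.06.

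Across the 41 genes, 4 were higher and 5 lower at an unadjusted p under 0.05, against 7.59% and 19.3% of all probes. Without the LPS-G0 arrays numbered 3 and 4 the counts were 0 higher and 2 lower, Psmb9 had 0.14 and Psmg4 0.47, and Tukey's test also gave 0 and 2. Groups did not overlap for 10 higher and 3 lower genes, where 7.3% and 14.6% of all probes did not overlap. The 10 included Psmb9, Psmb10 and 4 of the 5 ATPases, and the 3 were Psmd8, Psme3 and Psmf1. Psmb8, Psmb9 and Psmb10 had differences of 0.34, 0.28 and 0.43 with adjusted p-values of 0.38, 0.365 and 0.234, so that none was called.

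Set against its own partner on the same array, each immunosubunit had a larger log2 ratio in LPS-G1 than in LPS-G0. The difference of differences was 0.21 for Psmb8 minus Psmb5, 0.64 for Psmb9 minus Psmb6 and 0.57 for Psmb10 minus Psmb7. Psmb10 minus Psmb7 was -0.57 ± 0.30 in LPS-G0 and 0.00 ± 0.13 in LPS-G1 (SD, n = 4) and did not overlap, while the other pairs did. The same 3 values were 0.07, 0.40 and 0.30 in LPS-G2 against LPS-G0, -0.08, -0.16 and -0.42 in LPS-G0 against C-G0, 0.31, 0.84 and 0.32 in C-G1 against C-G0, and 0.0019, 0.27 and -0.19 in C-G2 against C-G0, with overlap in each. In LPS-G1 against C-G1 they were -0.18, -0.36 and -0.17, and in LPS-G2 against C-G2 -0.0047, -0.03 and 0.06, again with overlap. The LPS-G0 comparisons share their LPS-G0 arrays. On C-G0 replicate 1 the 3 pairs had -0.65, -0.98 and -1.01, the lowest of the 24 arrays for each. The values against C-G0 therefore rest in part on that array. In Psmb10 minus Psmb7 the other C-G0 arrays had 0.22, 0.26 and -0.06, all above the highest LPS-G0 array at -0.25. These pair values are a description and were not tested.

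Low-molecular-weight beta-glucan under LPS, LPS-G2 against LPS-G0, gave no called gene in the set (0% of all probes called by limma). None of the 41 genes passed an unadjusted p of 0.05 in either direction, against 2.62% of all probes higher and 5.61% lower, and no gene was free of overlap, against 2.81% of all probes higher and 7.73% lower. The differences ran from -0.27 for Psmd11 to 0.39 for Psmg4 with a median of 0.09. Psmb8, Psmb9 and Psmb10 had 0.12, 0.35 and 0.30, and Psmf1 -0.17. This comparison shares its LPS-G0 arrays with the preceding one.

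**Figure D4:**
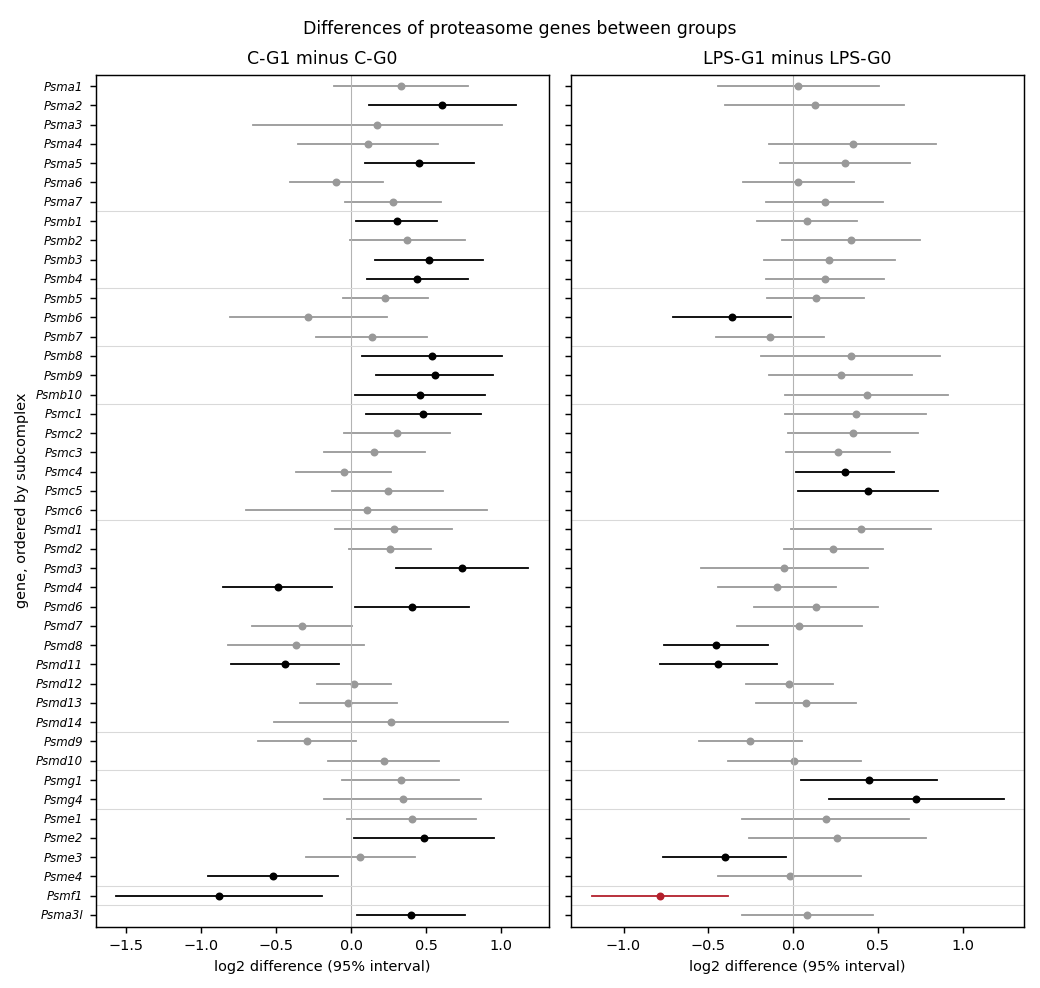
Log2 difference between groups with its 95% interval for each tested proteasome gene, by comparison. Only the Psmf1 interval in LPS-G1 against LPS-G0, from -1.19 to -0.38, belongs to a gene with an adjusted p under 0.05.

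Without LPS, the high-molecular-weight form gave the most differences at an unadjusted level. In C-G1 against C-G0, 13 of the 44 genes were higher and 4 lower at an unadjusted p under 0.05, against 12.1% and 15.8% of all 10708 probes, and none was called (0.028% of all probes). All 3 immunosubunits were among the 13, with 0.54 for Psmb8 (adjusted p = 0.145), 0.56 for Psmb9 (adjusted p = 0.124) and 0.46 for Psmb10 (adjusted p = 0.164). Their partners had 0.23 for Psmb5, -0.28 for Psmb6 and 0.14 for Psmb7, none of them past that level. The interferon-inducible cap subunit Psme2 had 0.49 (adjusted p = 0.169). Without C-G0 replicate 1, Psmb8, Psmb9, Psmb10 and Psme2 had 0.30, 0.33, 0.15 and 0.14, and Psmb5 had 0.14.

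Psmd3 had -0.82, -0.07, 0.18 and -0.25 in C-G0 and 0.67, 0.48, 0.41 and 0.43 in C-G1. The groups did not overlap, and the difference of 0.74 (SE 0.21, adjusted p = 0.106) was the highest in the set. Only 2 of the 4 C-G0 arrays were above background for Psmd3, so that its difference starts near the floor. The alpha subunit Psma2 followed with 0.61 (adjusted p = 0.137), and the structural beta subunit Psmb3 had 0.52 (adjusted p = 0.121). Lower values were those of Psmf1 (-0.88, adjusted p = 0.135), Psme4 (-0.52, adjusted p = 0.141), the ubiquitin receptor Psmd4 (-0.49, adjusted p = 0.131) and Psmd11 (-0.44, adjusted p = 0.139). The second Psme4 probe had 0.34 here, and the mean of both -0.09. Groups did not overlap for 4 genes, Psma2, Psma5, Psmb1 and Psmd3, all higher, against 3.07% of all probes higher and 3.97% lower.

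C-G0 replicate 1 carried much of this. Without it, 4 genes were higher and 4 lower at an unadjusted p under 0.05. Without C-G0 replicate 4 the counts were 18 and 5, and 4 genes were called: Psmb3, Psmb9 and Psmd6 higher and Psmd4 lower. The share of all probes called in that fit was not kept. Within slides, Psmb9 was higher in C-G1 by 0.76, 0.52 and 0.30, and Psmb8 by 0.66, 0.66 and 0.09. The slide 1 values include C-G0 replicate 1. On slides 2 and 3, C-G0 replicates 3 and 4 stood alone for their group.

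In C-G2 against C-G0, which shares the C-G0 arrays with the preceding comparison, 7 of 44 genes were higher and 1 lower at an unadjusted p under 0.05, against 5.41% and 7.84% of all probes, and none was called (0.028% of all probes). Psme4 had 0.47, 0.68, 0.41 and 0.15 in C-G0 and -0.24, -0.02, -0.47 and -0.69 in C-G2. All C-G2 arrays were below all C-G0 arrays, with a difference of -0.78 (SE 0.21, adjusted p = 0.174), and Psme4 was the 1 gene lower without overlap (1.3% of all probes, with 1.34% higher). The second Psme4 probe had 0.04, so that the probes of this gene disagreed. Psmb3 had 0.60 (adjusted p = 0.199), Psmd3 0.50 (adjusted p = 0.321) and Psmb7 0.50 (adjusted p = 0.253). Without C-G0 replicate 4, Psmb3 and Psme4 were called. Without C-G0 replicate 1 the counts at the unadjusted level were 4 higher and 2 lower, and Psmd3 had 0.30. The shares of all probes in these fits were not kept. The differences of Psmb8, Psmb9 and Psmb10 were 0.35, 0.44 and 0.31, and without C-G0 replicate 1 they were 0.11, 0.21 and 0.0006.

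The effect of LPS on the beta-glucan diets was small in this set. In LPS-G1 against C-G1 none of 44 genes was called (0.00934% of all probes), and the median was 0.02. At an unadjusted p under 0.05, 2 were higher and none lower, against 1.99% and 0.822% of all probes. Psmc4 had -0.04, -0.38, -0.17 and 0.18 in C-G1 and 0.33, 0.24, 0.23 and 0.52 in LPS-G1, the one gene of the set higher without overlap (1.33% of all probes), and its difference was 0.43 (adjusted p = 0.95). Psmd4 had 0.39 (adjusted p = 0.95). Psme3 lay lower in LPS-G1 without overlap (1.4% of all probes), with a difference of -0.19 (adjusted p = 0.95). In LPS-G2 against C-G2 none of 44 was called (0% of all probes) and none passed an unadjusted p of 0.05, against 0.588% higher and 0.504% lower, and no gene was free of overlap (0.57% of all probes higher, 0.504% lower). Psmb8, Psmb9 and Psmb10 had -0.08, -0.15 and 0.0041 in the first of these and -0.10, 0.04 and 0.02 in the second.

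Whether the LPS effect differed between diets was tested directly as an interaction. None of 44 genes was called for either form (0% of all probes). For the high-molecular-weight diet, Psmd3 alone was lower at an unadjusted p under 0.05 (-0.79, adjusted p = 0.999), and none higher, where 1.12% and 1.89% of all probes were. For the low-molecular-weight diet, Psmb1 (-0.51) and Psmb3 (-0.54) were lower at that level (adjusted p = 0.832 for both), and none higher, where 2.39% and 3.18% of all probes were. The interaction values of Psmb8, Psmb9 and Psmb10 lay between -0.27 and -0.01 over both forms, and none passed the unadjusted level.

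The caps of the core particle did not move as one group. The interferon-inducible pair Psme1 and Psme2 had -1.19 and -1.25 on C-G0 replicate 1 and lay between -0.15 and 0.27 on the other C-G0 arrays. On the LPS-G0 arrays Psme2 had -0.12, -0.06, -0.12 and -0.52, and every LPS-G1 array was above these. The log2 differences of Psme1 and Psme2 were 0.07 and 0.0067 in LPS-G0 against C-G0, 0.19 and 0.26 in LPS-G1 against LPS-G0, and 0.11 and 0.19 in LPS-G2 against LPS-G0, none of them called. Without C-G0 replicate 1 the first 2 were -0.24 and -0.34. Psme3 had 0.28, -0.40 and -0.25 in those comparisons, and Psme4 -0.43, -0.02 and -0.24. Psme1 has near-identical copies in the genome, so that its values may hold their signal.

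By part of the particle, none of the other groups held a called gene in any comparison. The alpha ring had 6 of its 6 tested genes above 0 in LPS-G1 against LPS-G0, with a median of 0.16 and a range from 0.03 for Psma1 to 0.35 for Psma4, and none passed the unadjusted level. The 4 structural beta subunits had medians of 0.25 in LPS-G0 against C-G0, 0.20 in LPS-G1 against LPS-G0 and 0.41 in C-G1 against C-G0, and 3 of the 4 were higher at the unadjusted level in the last. The non-ATPase subunits were split, with 5 of 10 above 0 in LPS-G1 against LPS-G0, from -0.46 for Psmd8 to 0.40 for Psmd1. In C-G1 against C-G0 they ran from -0.49 for Psmd4 to 0.74 for Psmd3, with 2 of 11 higher and 2 lower at the unadjusted level.

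Psmf1 followed the erythroid markers across the arrays. The list held 10 genes of red cell precursors, of which 9 were on the array and all 9 were tested, none of them dim. In LPS-G1 against LPS-G0, 3 of the 9 were called lower, with -1.03 for Hemgn, -0.81 for Klf1 and -0.93 for Epb42, where 8.39% of all probes were called lower. Another 3 of the 9 lay above 0, with Hbb highest at 0.16, and the list median was -0.20. The summed Cy3 signal of the list ranged from 631155 to 1017780 on the LPS-G0 arrays and from 665948 to 862228 on the LPS-G1 arrays. In C-G1 against C-G0, 4 were lower at an unadjusted p under 0.05, where 15.8% of all probes were, none was called, and the median was -0.64. The lower values were not particular to this list. The cell division list had 5 tested genes, none above 0 in either comparison, with medians of -0.54 and -0.82. In the first, 1 was called lower, and in the second, 4 were lower at the unadjusted level. Only the erythroid list was correlated with the proteasome genes.

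Over the 24 arrays, Psmf1 and the mean erythroid log2 ratio had a Pearson's r of 0.87 and a Spearman's rho of 0.82, with r = 0.75 without the 2 arrays farthest from the median erythroid level, and 0.55, 0.95 and 0.89 within the slides. Psmd8 had r = 0.80 and Psmd11 0.80, with 0.64 and 0.69 without those 2 arrays, and Psmd4 had 0.72, Psmd9 0.68 and Psmb6 0.65. Immunosubunits ran the other way, with r = -0.54 for Psmb8, -0.54 for Psmb9 and -0.61 for Psmb10. The points of each correlation share the array, its dye balance and the common reference, so that r is a description. Of 44 genes, 7 had r over 0.5 and 14 had r under -0.5, against 26.0% and 20.4% of all tested probes. All 14 kept a negative r on each slide, and 4 of the 7 a positive one. The part of erythroid cells in the Psmf1 and Psmd8 differences was not tested.

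**Figure D5:**
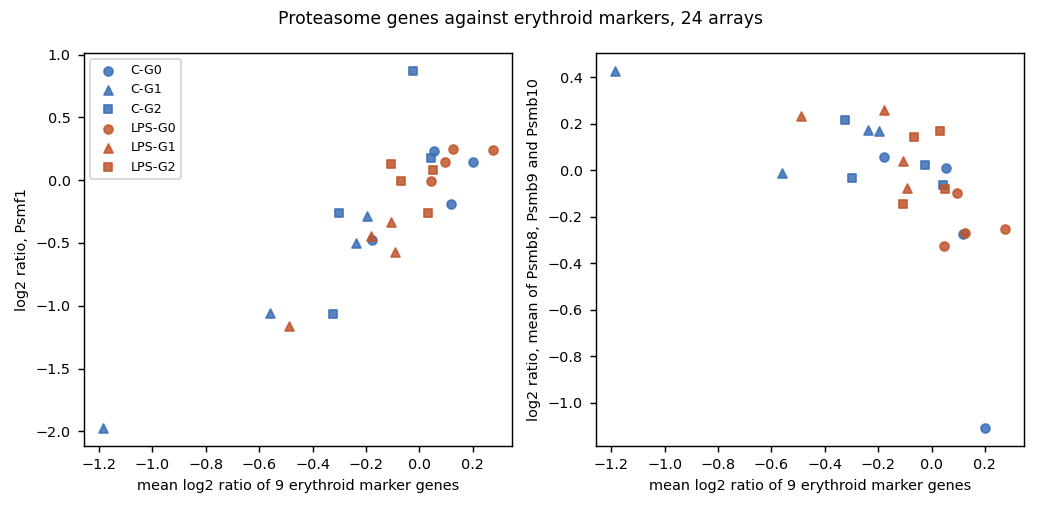
Log2 ratio of Cy3 over Cy5 of Psmf1 and of the mean of the 3 immunosubunits against the mean log2 ratio of the 9 erythroid markers, 1 point per array, with colour for LPS and shape for diet. Psmf1 is high where the markers are high (r = 0.87 over 24 arrays), and the C-G1 array with the lowest marker mean, -1.19, has the lowest Psmf1, -1.97.

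The immunosubunits moved with each other over the 24 arrays. Pearson's r was 0.88 for Psmb9 and Psmb10, 0.71 for Psmb8 and Psmb9 and 0.67 for Psmb8 and Psmb10, and 0.75, 0.49 and 0.37 without C-G0 replicate 1. Such values were not particular to them. The constitutive Psmb5 had r = 0.62 with Psmb8, 0.74 with Psmb9 and 0.58 with Psmb10, and 0.41, 0.57 and 0.24 without that array. Psmb7 had 0.37, 0.31 and 0.03 with the 3 over all arrays, and Psmb6 -0.09, -0.19 and -0.33. Psme2 had r = 0.92 with Psmb10 and 0.87 with Psmb9, and 0.79 and 0.72 without C-G0 replicate 1. Over all tested probes, those most like the mean of the 3 immunosubunits were probes of Sf3b2 (r = 0.94), RGD1559682 (0.93), Gcs1 (0.92) and Coro1a (0.92), next to 1 target with no gene symbol, and without C-G0 replicate 1 these 4 had 0.91, 0.84, 0.85 and 0.81. Psme2 was seventh and the ATPase Psmc1 ninth in that order.

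Genes that act with the proteasome were followed from fixed lists, and none was called in any comparison. Of 15 genes of ubiquitin supply and shuttling, 13 were tested, and in LPS-G1 against LPS-G0 Ubqln4, Ubb and Ubqln1 were lower at an unadjusted p under 0.05, with -0.59, -0.46 and -0.43, where 19.3% of all probes were lower at that level. Of 14 genes of MHC class I antigen processing, 10 were tested. In that comparison the peptide-loading chaperone Tapbp had -0.43 and the peptide-trimming enzyme Erap1 0.40, each past the unadjusted level. Of all probes, 19.3% were lower and 7.59% higher at that level. The peptide transporter subunit Tap1 had 0.98 in C-G1 against C-G0 and 0.98 in C-G2 against C-G0, both past that level. It was the 1 gene of the 10 higher at that level in each, where 12.1% and 5.41% of all probes were. Of 12 genes of interferon-gamma signalling, 9 were tested on 24 arrays. Those higher at that level in C-G1 against C-G0 included Irf1 (0.62), Ifngr1 (0.43) and Ifngr2 (0.39), where 12.1% of all probes were higher. In all, 6 of the 9 lay above 0, and the lowest was Jak2 at -0.24. Such values were not particular to C-G1. At that level 2 of 9 were higher in C-G2 against C-G0 and 2 of 8 in LPS-G2 against LPS-G0, where 5.41% and 2.62% of all probes were. In LPS-G1 against LPS-G0, 1 of 8 was lower, where 19.3% of all probes were. The genes of these lists were not refitted without C-G0 replicate 1. Further assembly factors and cofactors of the proteasome, 6 tested of 10, had no gene past the unadjusted level in any of the comparisons with LPS-G0 or C-G0. Of 7 transcription factors that act on proteasome genes, 4 were tested. Foxo4 had -0.85 and Nfe2l2 0.31 in C-G1 against C-G0, each past the unadjusted level, where 15.8% of all probes were lower and 12.1% higher.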

How the data were processed

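Total RNA of rat blood was hybridised by the authors to 24 Agilent rat arrays of 62976 spots, each against 1 pooled reference. Per the file headers, Agilent Feature Extraction 10.10.1.1 made the values (the submitters' processing notes name 10.7.3.1). The deposited log ratio is log10 of Cy5 over Cy3 after the scanner software's background subtraction and dye normalization, and its sign was turned and its scale changed to log2 here. The deposited processed Cy3 and Cy5 intensity and the deposited flags (yes or no per spot) were used to choose probes, to mark spots above background and to drop outlier spots. The deposited series table held the same 1511424 log ratios.

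Spots of a probe were averaged, and control spots left out. Probes well above background in Cy3 on every array of at least 1 group in a fit were tested with limma 3.58.1 in R 4.3.3, with Benjamini-Hochberg adjustment over all of them and a threshold of 0.05. The fit on 16 arrays (the 3 LPS groups and C-G0) gave LPS-G0 against C-G0 and both LPS diet comparisons, and the fit on 24 arrays the others. Each group lay on all 3 slides, with few arrays of a group on any slide, so that values within slides are a description. Named genes were the immunosubunits, their partners, the activators and, in each direction, the 3 genes with the largest change at an unadjusted p under 0.05, and others were named after their values were seen. The genes, lists and tests were chosen with earlier results of these data known. P-values measure only the spread between these samples, and with 4 arrays against 4 an exact permutation test cannot go below 0.0286. The fitting steps were tested on simulated data. Alternatives were normexp with loess, Cy3 alone, no filter, probe means, blocks, array weights, Tukey's test and leaving out arrays. The result of 1 further gene of the interferon-gamma list is not reported here.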

Additional observations from a re-analysis of the deposited data

Results flagged for a closer look

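Over the genes named by rule, 132 groups of 4 arrays were examined, and in 14 of them 1 array stood far from the rest. Chance alone marks about 1 in 20 groups.

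In C-G0, replicate 1 was far below the others for Psmb10 (-1.29, others -0.12 to 0.06), Psmc5 (-0.94, others -0.02 to 0.02) and Psmg1 (-0.65, others 0.14 to 0.19), and replicate 4 was below the others for Psmd4 (-0.18, others 0.27 to 0.35). In LPS-G0, replicate 4, whose labels conflict, was below the others for Psmb10 (-0.57, others -0.28 to -0.23), Psme2 (-0.52, others -0.12 to -0.06) and Psmg1 (-0.44, others -0.09 to -0.04), and replicate 3, with the same conflict, was above them for Psma2 (0.56, others -0.08 to -0.01). In C-G1, replicate 2 was low for Psmd8 (-1.06, others -0.15 to -0.09) and replicate 3 high for Psme3 (0.092, others -0.09 to -0.07). In C-G2, replicate 2 was low for Psmb3 (-0.16, others 0.21 to 0.25) and Psmb7 (-0.29, others 0.44 to 0.52). In LPS-G1, replicate 2 was high for Psme2 (0.21, others -0.01 to 0.02), and in LPS-G2, replicate 2 was low for Psme1 (-0.29, others -0.05 to -0.0045). The cause of these gaps was not tested.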

How the results depend on the processing

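Counts of called genes stayed at 0 in LPS-G2 against LPS-G0, LPS-G1 against C-G1, LPS-G2 against C-G2 and both interactions under every setting tried. LPS-G0 against C-G0, with 0 called, gave 1 with array weights, 2 with Tukey's test unadjusted and 0 to 1 with 1 array left out. LPS-G1 against LPS-G0, with 1 called, gave 2 with normexp and loess, 12 with array weights and 2 with Tukey's test unadjusted, and 0 without the filter, with Cy3 alone, with slide as a block, in a fit of all 24 arrays, without the arrays of conflicting labels (LPS-G0 numbers 3 and 4) and with Tukey's test adjusted. With 1 array left out it gave 0 to 3, C-G1 against C-G0 0 to 4 and C-G2 against C-G0 0 to 2. The share of all probes called was not kept for these settings, so that the counts do not single out the proteasome genes. The cause was not tested.

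With the replicate number as a block, LPS-G1 against LPS-G0 had 2 called genes (Psmf1 and Psmd11), and all other comparisons 0. The numbers share no animal, but they go in part with the slide, as arrays numbered 1 lay on slide 1 and those numbered 4 on slide 3. Deviations of same-numbered arrays had correlations from -0.14 to 0.07 in LPS-G1 against LPS-G0, where 1 of 4 arrays matched best with its own number. The mean was higher in C-G2 against C-G0, at 0.33 for same and -0.11 for different numbers. It was 0.22 and -0.07 in LPS-G1 against C-G1, and 0.17 and -0.05 in LPS-G2 against C-G2. In each of these, 3 of 4 arrays matched best with their own number. No comparison had every pair above 0.1.

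Signs turned for small differences. In LPS-G0 against C-G0, Psmb10 had -0.027 and Psme2 -0.0052 with normexp and loess, -0.00013 and -0.041 with Cy3 alone, and Psmb8, Psmb9, Psmb10, Psme1 and Psme2 had -0.097, -0.011, -0.19, -0.12 and -0.24 with array weights. In LPS-G1 against LPS-G0, Psme4 had 0.012, 0.22, 0.015 and 0.085 with normexp, Cy3 alone, the slide block and the probe mean. In LPS-G2 against LPS-G0, Psmb6 had 0.036 with array weights, and Psmb5, Psmb6 and Psmb7 had -0.030, 0.0012 and -0.089 without the arrays of conflicting labels. In C-G1 against C-G0, Psme3 had -0.0052 with normexp and -0.043 with Cy3 alone, and Psmb6 0.016 with array weights. In LPS-G1 against C-G1, Psmb10 had -0.013 and -0.074 under those first 2 settings, Psmb6 -0.071 with array weights and Psme4 -0.034 with the probe mean. In LPS-G2 against C-G2, Psmb9 had -0.020 with Cy3 alone.

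With 1 array left out, the ranges that crossed 0 were as follows. In LPS-G0 against C-G0, Psmb8 ran from -0.12 to 0.28, Psmb9 from -0.10 to 0.25, Psmb10 from -0.28 to 0.17, Psme1 from -0.24 to 0.25 and Psme2 from -0.34 to 0.17. In the LPS diet comparisons, Psme4 ran from -0.13 to 0.070 for LPS-G1, and Psmb5 from -0.028 to 0.094, Psmb6 from -0.20 to 0.067 and Psmb7 from -0.086 to 0.10 for LPS-G2. Against C-G0, Psme3 ran from -0.041 to 0.15 in C-G1, and Psmb6 from -0.077 to 0.40 and Psme2 from -0.032 to 0.48 in C-G2. In LPS-G1 against C-G1, Psmb8 ran from -0.19 to 0.034, Psmb10 from -0.051 to 0.11 and Psme4 from -0.072 to 0.21. In LPS-G2 against C-G2, Psmb8 ran from -0.23 to 0.050, Psmb9 from -0.048 to 0.14, Psmb10 from -0.031 to 0.093, Psmb6 from -0.16 to 0.31, Psmb7 from -0.24 to 0.056 and Psme4 from -0.016 to 0.26.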
